A study of Mus musculus with 5 samples.

Results

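Spp1, Lgals3, Gpnmb, Trem2, Fabp5 and Cd44 were followed over 5 heart sections of C57BL/6 wild-type mice measured with Visium, an assay in which barcoded spots on a slide catch the messenger RNA of the tissue above them, each spot covering several cells that may be of different types. They are the 6 genes with these symbols in the deposited expression tables. Of the 6, 5 are among the 13711 genes listed in all 5 tables, and Gpnmb was listed in 4. Spp1 and Lgals3 were picked on their rise 3 days after infarction, so their day 3 values are a description. Surgery was done on postnatal day 1, as myocardial infarction (MI, by ligation of the left anterior descending artery) or as a sham operation, and sections lay 200 µm under the ligature or, in sham hearts, at an equal height. Day 3 had 1 section of each operation, and day 7 had 1 sham section and 2 MI sections. In the study's account the second MI section at day 7 was an independent repeat of the first, while every other group was 1 heart. Each spot was scaled to CPM (a gene's share of the values in the spot, times 1e+06), the spots of a section were averaged, and the section was the replicate.

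Macrophages that clear dead tissue take up lipid and debris and, in many injured organs, switch on a shared set of genes. Spp1 encodes osteopontin, a secreted phosphoprotein that binds integrins and the hyaluronan receptor CD44. Lgals3 encodes galectin-3, a lectin that binds beta-galactosides. Gpnmb encodes a transmembrane glycoprotein of phagocyte membranes and lysosomes. Trem2 encodes a lipid-sensing receptor that signals through the adaptor encoded by Tyrobp. Fabp5 encodes a carrier of fatty acids inside cells, and it is also known from endothelium and skin.

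The positions of the genes below are those of mouse build GRCm38 (GENCODE M21). Spp1 lies on chr5:104435118-104441050 (plus strand), where it overlaps the gene model Gm42793 on the same strand, so reads in the overlap could be split. Lgals3 lies on chr14:47367751-47386160 and Gpnmb on chr6:49036546-49070929, both on the plus strand. Trem2 lies on chr17:48346401-48354147 and Fabp5 on chr3:10012548-10016607, again on the plus strand. Cd44 lies on chr2:102811141-102901665 on the minus strand and overlaps Gm23731, which is on the other strand. The sequences of 5 of the 6 promoters were at hand, from RefSeq on GRCm38.p6. The 4 that follow belong to the genes that were high in the same spots at MI day 3. Each is the 250 bases before the start, 5′ to 3′ on the gene's strand, with matches to the searched motifs in capitals. The Spp1 stretch is chr5:104434861-104435110, that of Lgals3 is chr14:47373610-47373859, that of Gpnmb is chr6:49036268-49036517 and that of Trem2 is chr17:48346151-48346400. The RefSeq start used for Lgals3, at 47373860, lies inside the gene span given above. Spp1 had 2 RefSeq starts, and the stretch shown belongs to that at 104435111.
Spp1: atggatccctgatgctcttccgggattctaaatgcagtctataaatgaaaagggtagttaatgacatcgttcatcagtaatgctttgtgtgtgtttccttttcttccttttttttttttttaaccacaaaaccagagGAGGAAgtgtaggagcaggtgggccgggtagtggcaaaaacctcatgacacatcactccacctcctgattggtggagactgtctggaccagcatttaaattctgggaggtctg
Lgals3: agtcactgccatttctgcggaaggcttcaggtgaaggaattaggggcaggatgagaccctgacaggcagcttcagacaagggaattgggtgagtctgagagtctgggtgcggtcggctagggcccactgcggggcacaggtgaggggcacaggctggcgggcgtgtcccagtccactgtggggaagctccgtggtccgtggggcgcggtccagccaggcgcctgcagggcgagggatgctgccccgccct
Gpnmb: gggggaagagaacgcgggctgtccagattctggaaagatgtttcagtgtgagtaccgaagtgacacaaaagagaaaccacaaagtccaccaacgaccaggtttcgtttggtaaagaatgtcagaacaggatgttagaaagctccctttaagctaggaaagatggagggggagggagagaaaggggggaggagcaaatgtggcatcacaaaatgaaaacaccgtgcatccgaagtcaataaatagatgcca
Gpnmb, the 30 bases from the start on: ggggcaagTGACTCAtgagcacgagttgtt
Trem2: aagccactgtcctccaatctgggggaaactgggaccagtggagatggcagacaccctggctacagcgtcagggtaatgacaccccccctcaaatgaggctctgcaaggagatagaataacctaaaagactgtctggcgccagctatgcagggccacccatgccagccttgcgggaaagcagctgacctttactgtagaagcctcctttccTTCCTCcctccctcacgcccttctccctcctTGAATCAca

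The motifs searched, on both strands and over 300 bases (250 before and 50 after the start), were AP-1 (TGANTCA), PU.1/ETS (GAGGAA), the M-box E-box (CATGTG) and the CLEAR E-box (CACGTG). Among 32851 RefSeq promoters, 7.81% held AP-1, 28.3% PU.1/ETS, 14.2% the M-box and 7.15% the CLEAR E-box. Spp1 held GAGGAA at -113 to -108 from the start. Trem2 held TTCCTC, the same motif on the other strand, at -40 to -35 and TGAATCA at -9 to -3. Gpnmb held TGACTCA at 9 to 15 after the start, within the 30 bases shown. Cd44 held TTCCTC at -243 to -238 and at -220 to -215. The Lgals3 window held none of the 4 sets of letters and was the richest in G and C, at 66% of the upstream bases against 43.6% for Spp1. A match describes the letters only.

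The sections held 3364 spots in all, 376 to 960 each, and 11396022 to 37492530 raw UMIs (deduplicated transcript reads) each. The median spot had 20842.5 to 53940 UMIs. The sham day 3 table held raw UMI counts, while the other 4 held counts corrected by sctransform, so day 3 compares differently made values. Xist stood at 39.3 CPM (sham day 3) and 48.6 CPM (MI day 7 replicate 1) and was not listed in the other 3, where Ddx3y was at 31.6 to 35.6 CPM. The day 3 sections thus came from animals of different sex, and at day 3 sex, the kind of value and the operation cannot be told apart. Mitochondrial transcripts made up 24.7% of MI day 7 replicate 1 and 13.8% to 15.8% of the others. Sections shared 3 to 449 spot barcodes, which are positions on the slide grid and not cells.

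At day 3, 4 of the 6 genes were far higher in the infarcted heart, and Fabp5 was close to level. Spp1 stood at 2.38 CPM after sham surgery and at 545 CPM after MI, a log2(CPM + 1) ratio of 7.33. A large part of the low sham level came from 1 spot. That spot held 20 of the section's 23 Spp1 UMIs (exact 95% Poisson interval of the 23, 14.6 to 34.5), and the sham mean without it was 0.269 CPM. A Spp1 value above 0 was found in 4 of 544 sham spots (0.735%, exact 95% interval 0.201 to 1.87) and in 314 of 376 MI spots (83.5%, 79.4 to 87.1), at unequal depth per spot. Lgals3 had a sham level of 2.56 CPM, from 27 UMIs (interval 17.8 to 39.3), and an MI level of 109.9 CPM, a log2 ratio of 4.96. Gpnmb went from 0.675 CPM, which was 7 UMIs (2.81 to 14.4), to 94.8 CPM, a log2 ratio of 5.84. These intervals cover counting error only. The receptor gene Trem2 was at 3.41 and 39.9 CPM, a log2 ratio of 3.22.

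Cd44 had 12.8 CPM after sham surgery and 26.3 CPM after MI at day 3, a log2 ratio of 0.99. Fabp5 was at 477 and 493 CPM, a log2 ratio of 0.049 that became -0.022 under median-of-ratios scaling. The median over the 6 genes was 4.09, beside 0.04 over all shared genes. A log2 ratio of at least 1 was reached by 4 of the 6 genes and by 3.62% of all shared genes. Since the contrast chose Spp1 and Lgals3, nothing is read from that count. With 1 section per group there was no test. In whole spots, fewer cells of a type and less RNA per cell cannot be told apart.

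At day 7 the levels after MI were lower than at day 3, and for Spp1, Lgals3 and Gpnmb most of what was left lay in MI replicate 2. Spp1 had 0.234 CPM after sham surgery, 1.52 CPM in MI replicate 1 and 22.3 CPM in MI replicate 2. The MI sections thus differed from each other 14.7-fold, with a mean of 11.9 ± 14.7 CPM (SD, n = 2). Lgals3 had 1.82 CPM after sham surgery and 4.33 and 11.1 CPM after MI (7.71 ± 4.78, SD, n = 2). Gpnmb was not listed in the sham day 7 table, which keeps genes with a value in at least 5 spots, and was at 0.863 and 5.46 CPM in the MI sections. Trem2 had 2.18 CPM after sham surgery and 4.99 and 7.65 CPM after MI (6.32 ± 1.88, SD, n = 2), the closest pair of MI values among the 4 genes that were high at day 3. Cd44 had 10.8 CPM after sham surgery and 14.3 and 18.2 CPM after MI. Fabp5 lay the other way, with 431 CPM after sham surgery and 240.5 and 320.5 CPM after MI.

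**Figure D1:**
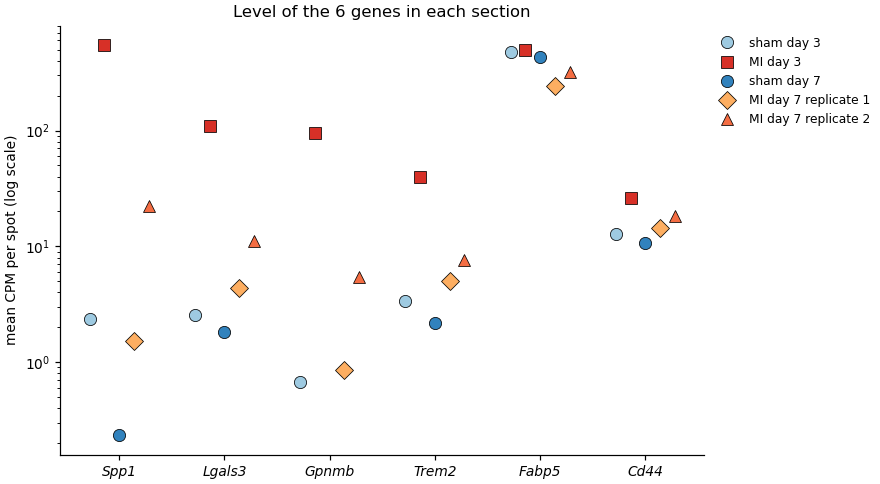
Mean CPM per spot of the 6 genes (log axis) in each of the 5 sections, 1 point per section. Spp1 spans 0.234 to 545 CPM, the MI day 3 section is the highest for all 6 genes (for Fabp5 not under median-of-ratios scaling), and Gpnmb has no point at sham day 7, where it was not listed.

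In the limma fit at day 7, none of the 5 genes tested passed an adjusted p of 0.05, a threshold passed by 0.186% of 12933 genes upward and by 0.0464% downward. An unadjusted p under 0.05 was reached upward by Spp1, Lgals3, Trem2 and Cd44 and by 2.43% of all genes tested, and downward by Fabp5 and by 1.69%. The log2 difference between MI and sham was 2.63 for Spp1 (SE 0.70, adjusted p = 0.254), 1.51 for Lgals3 (SE 0.33, adjusted p = 0.0836) and 1.18 for Trem2 (SE 0.26, adjusted p = 0.0803). For Cd44 it was 0.54 (SE 0.23, adjusted p = 1.00) and for Fabp5 -0.63 (SE 0.27, adjusted p = 1.00). The spread in this fit came from 1 pair of sections, and the call turned with the processing. Spp1, Lgals3 and Trem2 all passed when genes under 5 CPM were left out (adjusted p = 0.00185, 0.00285 and 0.0204, where 0.404% of genes rose). They met that filter only through MI day 3 and MI day 7 replicate 2, where they were high, so it is no support for a difference. They also passed with the values summed over spots (adjusted p = 4.6e-05, 0.00047 and 0.00794, where 0.48% rose) and with the highest spot of each gene left out (adjusted p = 0.0037, 0.00436 and 0.0105, where 0.406% rose). Over the 12 alternatives the adjusted p ran from 4.6e-05 to 0.982 for Spp1, from 0.00047 to 0.735 for Lgals3 and from 0.00794 to 0.471 for Trem2.

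Across both days, with day as a covariate, MI exceeded sham by a log2 difference of 4.65 for Spp1 and 2.99 for Lgals3, given without a test because day 3 had chosen these genes. For Trem2 the difference was 2.05 (SE 0.43, limma adjusted p = 0.375), for Cd44 0.73 (SE 0.17, adjusted p = 0.391) and for Fabp5 -0.34 (SE 0.20, adjusted p = 0.728). None of these 3 passed, and 0.00773% of genes did. With the animal's sex in the fit, Trem2 was higher by 1.91 (SE 0.21, adjusted p = 0.0028) and Cd44 by 0.69 (SE 0.13, adjusted p = 0.0295), where 1.78% of all genes rose. That fit had 1 residual degree of freedom, and sex was read from Xist and Ddx3y in the same data. In levels, the lowest MI section was above the highest sham section for Lgals3, Trem2 and Cd44, 3 of the 5 genes listed throughout, beside 7.24% of all shared genes. Nothing is read from Lgals3 in that count, since the day 3 sections that chose it are among those compared. The highest MI section lay below the lowest sham section for 0 of the 5, beside 9.36% of all shared genes. Spp1 overlapped, since MI day 7 replicate 1 at 1.52 CPM lay below the sham day 3 section at 2.38 CPM. Without the highest spot of each section these values were 1.41 and 0.269 CPM, and the groups no longer overlapped. Nothing is read from that, since day 3 chose Spp1 and this setting was added after the data were seen.

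Where the transcripts lay was read from the cell type scores that the authors transferred to each spot from single-nucleus data. A spot was placed in the class of its highest score, among them Macrophage, fibroblast (FB), endothelial (EC), endocardial (EndoEC), epicardial (EPI) and the cardiomyocyte states CM1 to CM5. The scores came from the same expression values, so the class levels are a description. At MI day 3, 20 of the 376 spots were Macrophage-dominant, and 5 of the 6 genes had their highest class mean there. The 13 macrophage markers, Lyz2, Csf1r and Adgre1 among them, were all higher in these 20 spots than in the others, with a summed level 16.2-fold higher. Fibroblast markers were 3.10-fold higher there, and cardiomyocyte markers were at 0.488 of the level elsewhere, so the spots also held transcripts of other cell types.

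In the 20 Macrophage-dominant spots of MI day 3, Spp1 ran from 58.9 to 29347 CPM with a median of 5367 and a mean of 7632. The mean of the 356 other spots was 147 CPM, 52.0-fold lower. These 20 spots were 5.32% of the section and held 74.5% of its Spp1. Gpnmb had a mean of 1263 CPM there against 29.1 elsewhere (43.3-fold) and Lgals3 had 1147 against 51.6 (22.2-fold). Gpnmb and Lgals3 were each at 0 in 1 of the 20 spots. Trem2, at 386 against 20.5 CPM (18.8-fold), and Cd44, at 133 against 20.4 CPM (6.53-fold), were above 0 in all 20. The general macrophage gene Lyz2 was 24.4-fold higher in these spots, so Spp1 and Gpnmb were set apart from the other spots by a larger fold than Lyz2, and Lgals3, Trem2 and Cd44 by a smaller one.

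After the Macrophage class, the genes went different ways. Spp1 was next highest in the 40 CM4-dominant spots, at 568 CPM, and Gpnmb also, at 98.5 CPM. Lgals3 and Trem2 were next highest in the 22 FB-dominant spots, at 227 and 62.3 CPM. The ratio of summed Spp1 to summed Lgals3 was 6.71 in Macrophage-, 4.73 in CM4-, 2.88 in CM1- and 0.965 in FB-dominant spots. That of Spp1 to Trem2 was 19.9, 10.8, 6.11 and 3.49 in the same order. That of Spp1 to Gpnmb was 6.07, 5.77, 5.22 and 2.83. Spp1 was thus not in a constant ratio to Lgals3 or Trem2 over the section, while its ratio to Gpnmb stood apart mainly in the FB-dominant spots. The part in these ratios of RNA found in isolated spots, whose levels are given with the distances, was not tested.

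**Figure D2:**
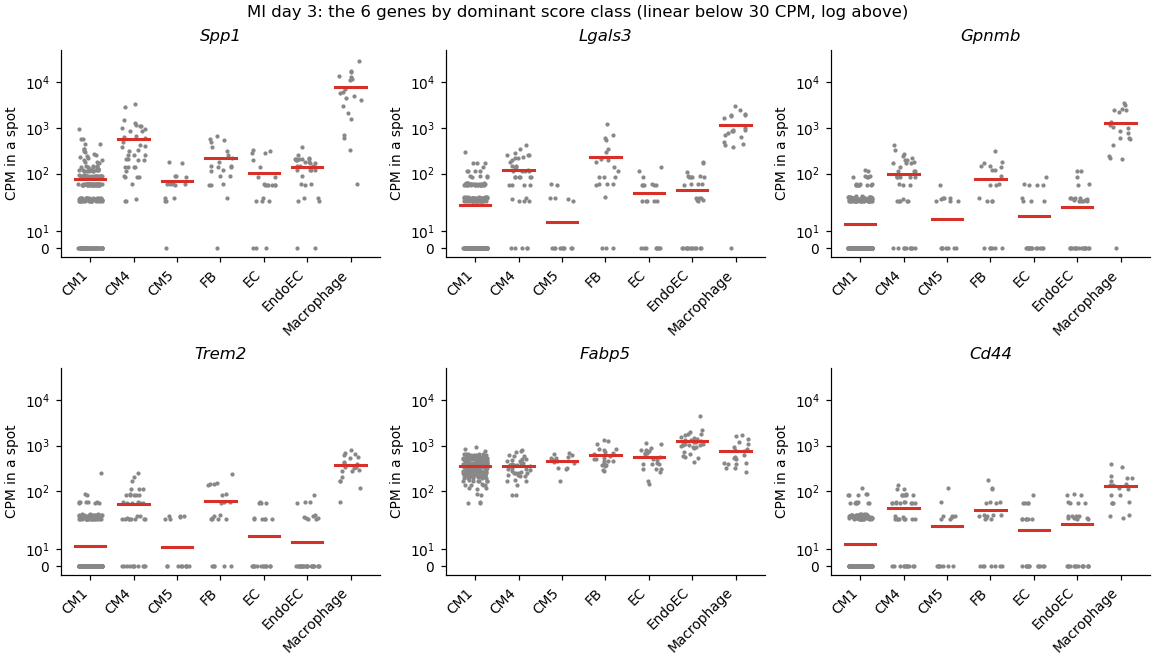
CPM of the 6 genes in each spot of the MI day 3 section (grey points; axis linear below 30 CPM and log above) by dominant score class, with the class mean as a red line, for the 7 classes with at least 10 spots. For 5 genes the 20 Macrophage-dominant spots have the highest mean, 7632 CPM for Spp1, while Fabp5 is highest in EndoEC-dominant spots at 1276 CPM.

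Fabp5 went against the label of an injury phagocyte gene. Its class mean was highest in the endocardial-dominant spots of every section, with 779 CPM (sham) and 1276 CPM (MI) at day 3, and with 711 CPM (sham) and 431 and 614 CPM (MI) at day 7. In the Macrophage-dominant spots of MI day 3 it was at 761 CPM, 1.59-fold above the other spots. The corresponding ratios were 0.933 and 0.994 in the sham sections of days 3 and 7, 0.840 in MI day 7 replicate 1 and 1.55 in replicate 2. Of its 38 highest spots at MI day 3, 25 were EndoEC- and 6 Macrophage-dominant. Fabp5 was thus a gene of nearly every spot with its highest level in the endocardial class and a smaller excess in the Macrophage-dominant spots of 2 of the 3 MI sections.

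The genes were unequally concentrated. The 10% of spots with the highest Spp1 held 84.8% of its summed CPM at MI day 3, which ranked 2 among 6347 genes with at least 20 CPM there. Gpnmb followed with 81.8% (rank 3), Lgals3 with 72.5% (rank 7), Trem2 with 68.5% and Cd44 with 48.2%. Fabp5, at 28.1%, was close to the median of those genes, 29.2%. The 38 top spots of Spp1 shared 30 with those of Lgals3, 30 with Gpnmb and 30 with Trem2, but 6 with those of Fabp5. Of the 38, 18 were Macrophage-, 14 CM4-, 3 FB- and 3 CM1-dominant. In the MI day 7 replicate 2 section, where 84 of 791 spots had a Spp1 value, 36.0% of the Spp1 lay in 1 spot.

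Neighbouring spots tended to carry alike levels at MI day 3. Moran's I, which is near 0 for a random scatter and near 1 when neighbours match, was 0.621 for Trem2, 0.549 for Gpnmb, 0.530 for Lgals3, 0.523 for Spp1, 0.474 for Fabp5 and 0.377 for Cd44, beside a median of 0.037 over 6347 genes. Of the 20 Macrophage-dominant spots, 18 touched another, which is 90% beside 40% to 61.5% in the other sections. Levels were lower with distance from them. Spp1 averaged 7632 CPM in the Macrophage-dominant spots, 753 CPM in the 30 spots next to them, 119.5 CPM at 3 steps and 71.8 CPM at 4 or more steps. Lgals3 took the values 1147, 242, 39.2 and 26.2 CPM at the same distances, and Trem2 the values 386, 78.9, 16.0 and 12.97 CPM. From the Macrophage-dominant spots to the spots next to them the Spp1 level thus differed by a larger factor than that of Lgals3 or Trem2. Fabp5 was lowest next to the Macrophage-dominant spots, at 349 CPM, and was at 506 CPM at 4 or more steps.

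The same split held within a class. CM4-dominant spots within 2 steps of a Macrophage-dominant spot averaged 808 CPM of Spp1 (26 spots, median 611), and those farther off 121 CPM (14 spots, median 99.3). FB-dominant spots within 2 steps averaged 431 CPM of Lgals3 (10 spots) against 57.2 CPM farther off (12 spots). CM1-dominant spots averaged 236 CPM of Spp1 near (17 spots) and 60.1 CPM far (194 spots). The part of spread of RNA between spots in these levels was not tested, but a background can be given. The 10 spots of the MI day 3 section with no neighbouring spot had a median of 534.5 raw UMIs and averaged 201 CPM of Spp1, 69.3 of Lgals3, 30.9 of Gpnmb and 53.6 of Trem2. The Spp1 level of the CM1-dominant spots far from Macrophage-dominant ones, like that of the CM4- and FB-dominant spots equally far and of the CM5-, EC- and EndoEC-dominant spots, was below that of the isolated spots and is not read as expression in those cells. The far CM1-dominant spots were also below the isolated spots for Lgals3 (22.0 CPM), Gpnmb (12.6 CPM) and Trem2 (11.6 CPM).

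**Figure D3:**
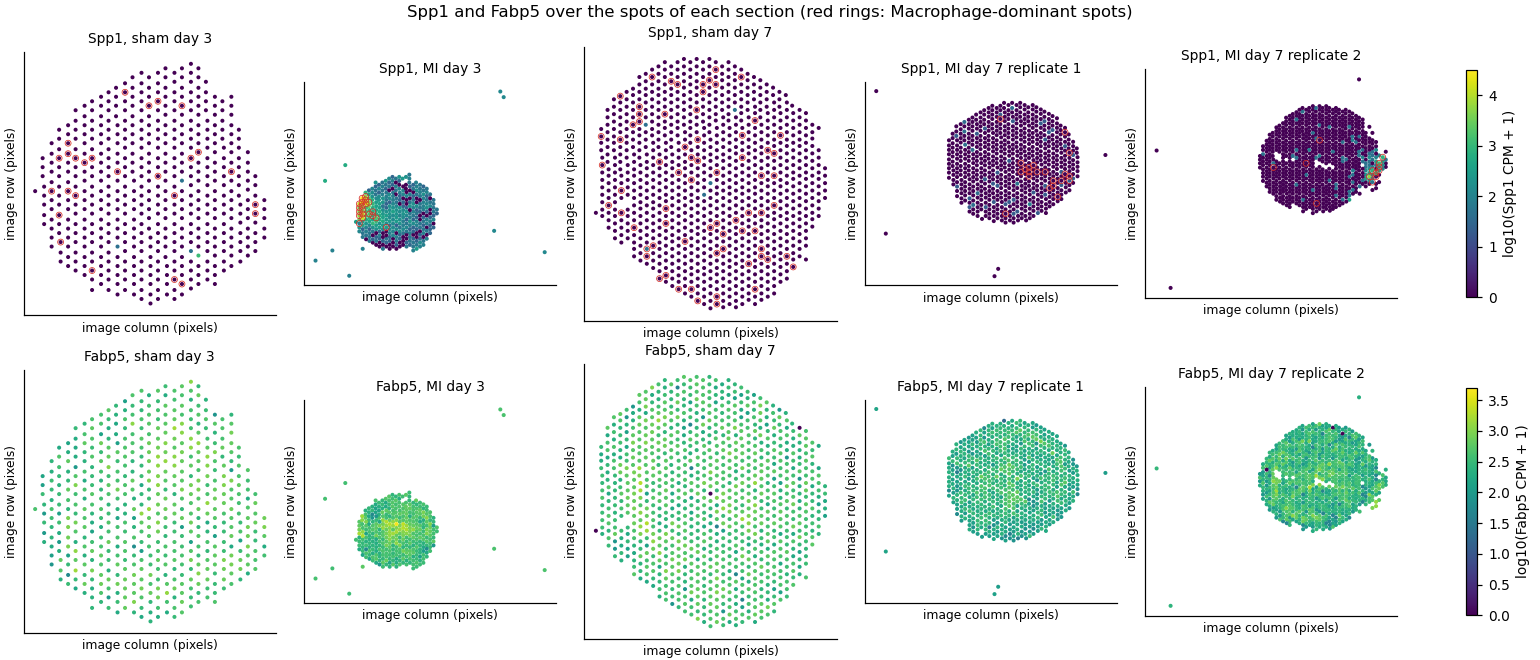
Spots of the 5 sections at their image position in pixels, coloured by log10(CPM + 1) of Spp1 (upper row) and Fabp5 (lower row), with Macrophage-dominant spots ringed in red in the upper row. The 20 ringed spots of MI day 3 lie together at an edge where Spp1 is highest, those of the sham sections are spread over several places with Spp1 at or near 0, and Fabp5 is above 0 in nearly every spot.

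**Figure D4:**
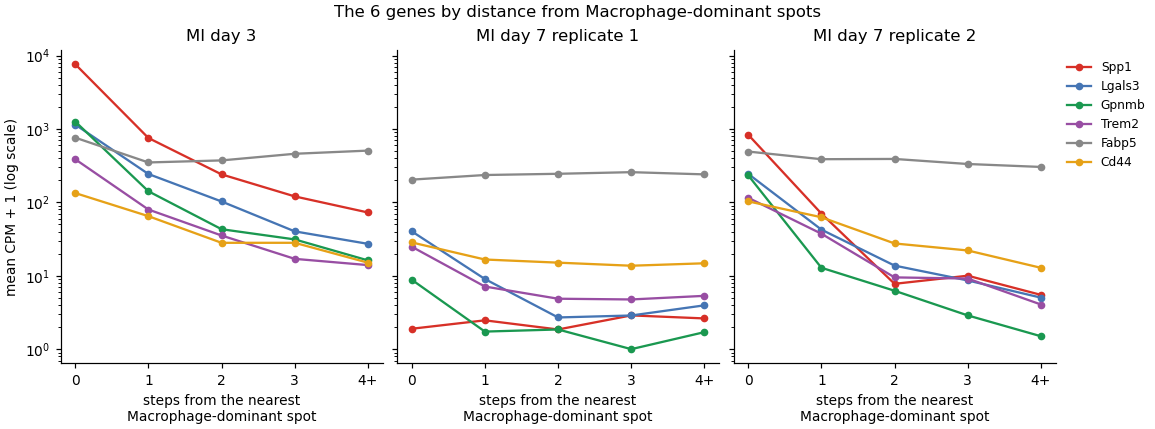
Mean CPM + 1 of the 6 genes (log axis) against steps from the nearest Macrophage-dominant spot in the 3 MI sections, where 0 is the Macrophage-dominant spots themselves and 4+ is 4 or more steps. Spp1 goes from 7632 to 71.8 CPM at MI day 3 and from 834 to 4.49 CPM in MI day 7 replicate 2, and stays between 0.854 and 1.88 CPM in replicate 1.

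Macrophage-dominant spots were present in every section, but they were not alike in macrophage content. Their 13 markers summed to 10804 CPM at MI day 3 and 4243 CPM in MI day 7 replicate 2, against 485 to 719 CPM in the other 3 sections. The summed monocyte list was 4.57-fold and 5.07-fold above the other spots in the first pair and 0.909 to 1.39 of them in the other 3. That sum was mostly Fn1, which is also in the fibroblast list. Over the whole section Fn1 was 904 of 930 CPM at MI day 3 and 739 of 746 CPM in MI day 7 replicate 2. The fold is thus not read as monocyte content. In the sham day 3 section the 26 such spots held 0 Spp1 UMIs, which allows up to 5.47 CPM (3 counts over the spots' 548033 UMIs), although their macrophage markers were 3.38-fold above the other spots. In the sham day 7 section 1 of 70 such spots had a Spp1 value, and the mean was 0.636 CPM. In MI day 7 replicate 1 it was 1 of 21 spots and 0.897 CPM. In MI day 7 replicate 2 it was 8 of 13 spots, with a mean of 834 CPM, a median of 332 and a highest spot of 6348. In the Macrophage-dominant spots of 3 sections Spp1 was thus not detected or seen in 1 spot, and in those of the other 2 it was abundant.

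Lgals3 and Trem2 were, like Spp1, highest in the Macrophage-dominant spots of MI day 3 (1147 and 386 CPM) and next in those of MI day 7 replicate 2. Unlike Spp1, they were seen in more than 1 such spot in each of the other 3 sections, though the sham values rest on few spots. Lgals3 was above 0 in 6 of 26 spots at sham day 3 and in 7 of 70 at sham day 7, and Trem2 in 4 and 10 of them. In the Macrophage-dominant spots Lgals3 averaged 12.8 CPM at sham day 3, 4.34 at sham day 7, 39.4 in MI day 7 replicate 1 and 243 in replicate 2. Trem2 averaged 8.02, 8.05, 23.9 and 114 CPM in the same order, and Gpnmb was at 7.84 CPM in MI day 7 replicate 1 and at 233 CPM in replicate 2. In MI day 7 replicate 1, then, Lgals3 and Gpnmb were both 12.1-fold higher in these spots than elsewhere and Trem2 5.43-fold, while Spp1 was 0.584 of the level elsewhere. Markers of other cell types in the spots differed between the same sections. Fibroblast markers in the Macrophage-dominant spots were 3.10-fold and 3.59-fold above the other spots in MI day 3 and MI day 7 replicate 2, and 0.823 to 1.16 of them in the other 3 sections. Cardiomyocyte markers were at 0.488 and 0.523 in the first pair and at 0.966 to 0.981 in the other 3. Lymphoid markers were 22.7-fold and neutrophil markers 11.6-fold above the other spots in MI day 7 replicate 2, against 4.64-fold and 1.31-fold at MI day 3 and 0.823 to 1.91 and 1.09 to 3.95 in the other 3 sections. The part of these differences, and of those in macrophage and monocyte markers, in the Spp1 level was not tested.

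**Figure D5:**
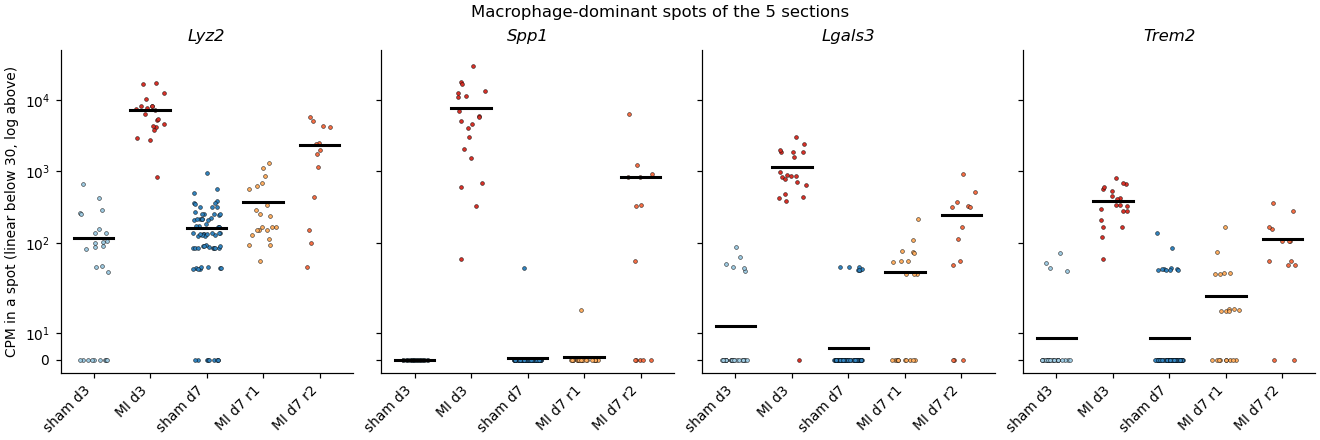
CPM of Lyz2, Spp1, Lgals3 and Trem2 in each Macrophage-dominant spot of the 5 sections (d, day; r, replicate; axis linear below 30 CPM and log above), with the section mean as a black line. Spp1 means are 0, 7632, 0.636, 0.897 and 834 CPM from left to right.

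In MI day 7 replicate 2 the spot with the most Spp1 (123 of the section's 343 in deposited values) was also the highest of the section for Lgals3, Gpnmb and Trem2, with a Macrophage score of 49.8%. At MI day 3 the highest Spp1 spot was second for Gpnmb and Trem2 and first for Lyz2, with a Macrophage score of 94.2%. The sham day 3 spot with 20 Spp1 UMIs was different in class, EndoEC-dominant with a score of 97.2%, but it had the most Gpnmb of its section (2 UMIs) and 10 Lyz2 UMIs. This spot was singled out after its values were seen. Epicardial-dominant spots, in a class of 15 in MI day 7 replicate 2, averaged 59.8 CPM of Spp1, 88.3 of Lgals3 and 80.4 of Cd44, next to the Macrophage class for all 3.

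Relative to macrophage markers, Spp1 varied most and Trem2 least among the 4 genes that were high at day 3. The 13 markers summed to 165 CPM in each sham section, to 1207 CPM at MI day 3, and to 246 and 360 CPM in the MI sections of day 7. Per 100 CPM of that sum, Spp1 was at 1.45 CPM at sham day 3, 45.1 at MI day 3, 0.142 at sham day 7, and 0.617 and 6.19 in the MI day 7 sections. Trem2 was at 2.07, 3.31, 1.32, 2.03 and 2.13 CPM in the same order. Per CPM of Csf1r alone, a narrower macrophage marker, Trem2 was at 0.283, 0.705, 0.162, 0.253 and 0.362, a wider range than per the sum, in which Lyz2 made up 663 of 1207 CPM at MI day 3 and 41.1 of 165 at sham day 3. Per 100 CPM of the sum Lgals3 lay between, at 1.56, 9.10, 1.10, 1.76 and 3.08 CPM, and Cd44 was lowest per marker at MI day 3, at 2.18 against 5.04 to 7.78 elsewhere.

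Across the 376 spots of MI day 3, Spearman's rho among Spp1, Lgals3, Gpnmb and Trem2 was 0.47 to 0.56, and 0.09 to 0.18 between Fabp5 and the other 5. Spots share the animal, the library and their neighbours, so these are descriptions. The genes whose ranks were most like those of Spp1 were Ctsb (rho 0.61), Clu (0.61), S100a6, Lyz2 and Ifi27l2a, where the median gene had 0.03. For Lgals3 they were Lyz2 (0.62), Ctsb, Clu, Apoe and Ctss, and for Gpnmb Clu (0.56), Lgals3, Ctsb, Lyz2 and Spp1. For Trem2 they were Ctsb (0.54), C3ar1, Pld4, Ccl9 and Lgals3, and for Cd44 Clu (0.49), Ctsb, Cyth4, Ccl6 and Lgals3. Ctsb, a lysosomal cysteine protease, was among the 5 most alike for each of these 5 genes. Fabp5 had other neighbours, Tmsb10 (0.47), H19, Vim, Tmem158 and Id3. Vim encodes an intermediate filament of mesenchymal and endothelial cells. Fabp5 had a rho of 0.50 with the EndoEC score and of 0.03 with the Macrophage score.

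Receptors and signalling partners of the genes were compared as lists. Of 8 integrin subunits of osteopontin receptors, 0 passed at day 7 by limma, 0 had an unadjusted p under 0.05, and the median log2 difference was 0.09, beside -0.04 over all genes tested. Itgb1, the beta chain shared by many integrins, was at 462 and 575 CPM in sham and MI at day 3, Itgb5 at 65.1 and 137 CPM, Itga5 at 74.5 and 86.0 CPM and Itga9 at 38.9 and 55.8 CPM. A day 3 log2 ratio of at least 1 was reached by 2 of the 8, Itgb5 (1.06) and Itga4 (1.77, from 1.03 to 5.93 CPM), beside 3.62% of all shared genes. Of the Trem2 signalling partners, 5 were tested and 0 passed, with 1 upward at an unadjusted p under 0.05, beside 2.43% of all genes tested. That gene was Tyrobp, the adaptor of Trem2, at 25.4 and 131 CPM at day 3, at 20.1 CPM in the sham of day 7, and at 29.3 and 34.2 CPM in the MI sections. The kinase gene Syk was at 22.1 and 20.1 CPM at day 3, Plcg2 at 12.1 and 18.0 CPM and Inpp5d at 7.12 and 12.5 CPM. Of the 6 partners, 3 reached a day 3 log2 ratio of at least 1, Tyrobp (2.32), Pik3ap1 (1.51) and Hcst (1.38), beside 3.62% of all shared genes. Itga4, Pik3ap1 and Hcst are named for this count, after their values were seen.

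Of the lipid and lysosome genes of injury phagocytes, 20 were tested at day 7 and 0 passed, with 3 upward at an unadjusted p under 0.05, beside 2.43% of all genes tested. The lowest MI section was above the highest sham section for 7 of 21, beside 7.24% of all shared genes. The median log2 value of this list was 0.97 at day 3 and 0.21 at day 7. A day 3 log2 ratio of at least 1 was reached by 11 of the 22 genes, beside 3.62% of all shared genes, Mmp12 (4.15), Apoc1 (3.16), Itgax (2.96) and Apoe (2.21) among them, which are named here after their values were seen. The 4 genes with the highest mean level were not among the 11. The ferritin gene Fth1 was at 2455 and 2660 CPM in sham and MI, Ftl1 at 579 and 1106 CPM, the fatty acid receptor gene Cd36 at 698 and 599 CPM, and the lipase gene Lpl at 518 and 584 CPM. In the list of galectins and the galectin-3 ligand gene Lgals3bp, Lgals1 was at 447 and 622 CPM, Lgals9 at 51.1 and 65.4 CPM and Lgals3bp at 19.2 and 55.0 CPM. At day 7, 0 of the 6 genes of this list passed, Lgals3 included. At an unadjusted p under 0.05, 2 were upward, Lgals3 and Lgals4, beside 2.43% of all genes tested. In the fatty acid binding family, Fabp3, the heart muscle form, was at 8600 and 6659 CPM, and Fabp4, which is also in the endothelial list, at 1504 and 1294 CPM. Of the 4 genes, 0 passed at day 7, with Fabp5 downward at an unadjusted p under 0.05, beside 1.69% of all genes tested.

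Marker lists of cell types were compared in the same sections. For macrophage markers the lowest MI section was above the highest sham section in 11 of 13, beside 7.24% of all shared genes, with a median log2 value of 2.14 at day 3 and 0.72 at day 7, and 0 passed at day 7 by limma (9 upward at an unadjusted p under 0.05, beside 2.43% of all genes tested). Lyz2 was at 41.1 and 663 CPM at day 3, C1qa at 20.2 and 78.5 CPM, C1qc at 20.2 and 75.0 CPM and C1qb at 15.6 and 80.3 CPM. Median log2 values at day 3 and day 7 were 1.80 and 0.67 for monocyte, 1.50 and 0.64 for neutrophil, 0.84 and 0.11 for resident macrophage, 0.50 and 0.31 for fibroblast and 1.40 and 0.45 for erythroid markers. For endothelial markers they were -0.15 and -0.12, and for cardiomyocyte markers -0.13 and -0.07. In these lists 0 genes passed at day 7, with 2 of 3 monocyte, 1 of 8 fibroblast and 1 of 5 erythroid genes upward, 1 of 6 resident macrophage genes in each direction, and 0 in the rest at an unadjusted p under 0.05, beside 2.43% upward and 1.69% downward of all genes tested. The lowest MI section was above the highest sham section for 5 of 5 erythroid, 4 of 8 fibroblast, 3 of 6 resident macrophage, 1 of 3 monocyte, 1 of 3 lymphoid and 1 of 3 epicardial genes listed throughout, and for 0 of the neutrophil, endothelial and cardiomyocyte genes, beside the same 7.24%. In the epicardial list, 2 of 3 genes tested at day 7 rose, beside 0.186% of all genes tested, Krt19 by a log2 value of 1.62 (SE 0.27, adjusted p = 0.0104) and Msln by 1.86 (SE 0.33, adjusted p = 0.0227). Both calls were lost under median-of-ratios scaling and with mitochondrial and haemoglobin genes left out before scaling, where 0 genes of all those tested passed in either direction (395 up and 282 down, and 479 up and 189 down, at an unadjusted p under 0.05). The part of each of these cell types in the levels of the 6 genes was not tested.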

How the data were processed

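Visium sections were compared as deposited. As the labels and methods state, the authors aligned reads to mm10/GRCm38 with Space Ranger and normalized spots with sctransform in Seurat. The deposited sham day 3 table held raw UMI counts per gene and spot. In the remaining 4 the deposited values were sctransform output, a score rounded to whole numbers and corrected to a common depth, for genes with a value in at least 5 spots, so their low values are not raw reads. The deposited metadata gave raw UMI counts per spot, image positions (other) and cell type scores between 0 and 1 (a fraction) made by the authors by label transfer. A count test was not used because 4 tables were not raw counts.

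Each spot was scaled to CPM over the 13711 shared genes, and spots were averaged per section. Genes with at least 1 CPM in at least 2 sections (12933) were fitted on log2(mean CPM + 1) with limma 3.58.1 (trend, two-sided, Benjamini-Hochberg, threshold 0.05) in R 4.3.3. This scale understates changes of low genes. The day 7 contrast came from 4 group means (1 residual degree of freedom), that across days from a fit with day (2, or 1 with sex added). Other steps used Python 3.11.15 with numpy 2.4.6, pandas 2.3.3 and scipy 1.17.1. The fit was tested on simulated data. Neighbours were spots within 1.25 times the median spacing. Classes with at least 10 spots were compared. Where no test is named, values describe spots of 1 section and have no p-value. Shares and UMI sums carry exact 95% intervals, which cover counting error only. The 6 genes and all gene lists were chosen with earlier results of these data known. Beside the 6, the text names the 4 most abundant genes of the signalling, lipid, family and macrophage lists, any list gene that passed, and the 5 genes with the highest Spearman's rho with a member among those with at least 20 CPM at MI day 3. Alternatives were other pseudocounts, scalings, filters and spot sets, sex as a covariate and each section left out.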

Additional observations from a re-analysis of the deposited data

Results flagged for a closer look

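Fabp5 lay on different sides of sham on the 2 days. Its log2 ratio of MI over sham was 0.049 at day 3, where the MI section was the higher, and its log2 difference was -0.63 at day 7, where both MI sections were below the sham section. The difference between the days was not tested. The day 3 value was smaller than the SD of 0.29 (log2) between the MI sections of day 7 and became -0.022 under median-of-ratios scaling, and the day 7 difference did not pass the limma test (adjusted p = 1.00).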

How the results depend on the processing

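At day 7, 0 of 5 genes passed, and 3 of 5 (Spp1, Lgals3 and Trem2) passed with a filter at 5 CPM, with values summed over spots and divided by the section total, and with the highest spot of each gene left out, the last added after the data were seen. The 3 genes met the 5 CPM filter only through MI sections where they were high, so that setting is no support. For Spp1 the same holds of the 1 CPM filter with the highest spot of each gene left out. With the day 3 sections left out in turn the count was 0. Leaving out a day 7 MI section leaves nothing to estimate the spread from, so it gave no test. Across days, 0 of 3 passed, against 2 of 3 (Trem2 and Cd44) with sex as a covariate and 0 to 1 with each section left out, the 1 being Trem2 without the sham day 7 section. That fit compares MI day 3 with sham day 3 alone, 1 section each, with a spread from the MI day 7 pair assumed to hold for the others (2.42% of genes up), and is no support for Trem2. Without that section the Fabp5 difference across days was 0.049, and over all sections left out in turn it ran from -0.63 to 0.049. Under median-of-ratios scaling the Fabp5 ratio at day 3 was -0.022. The cause of these changes was not tested. The median day 3 ratio of the 6 genes stayed between 3.17 and 4.27, and 5 of 6 genes were highest in the Macrophage class under each of 4 alternatives. With each section left out, the difference across days ran from 2.63 to 7.33 for Spp1, from 1.51 to 4.96 for Lgals3 and from 1.18 to 3.22 for Trem2. No paired analysis was possible because only the MI day 7 group holds a second replicate number. Depth limits the sham values, since 7 to 35 UMIs stood behind Gpnmb, Spp1, Lgals3 and Trem2 at sham day 3.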
